A study of Homo sapiens with 8 samples.

Results

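The genes described here encode enzymes that process foreign compounds, pumps that carry drugs and conjugates out of cells, and regulators of these genes. The set was given as 47 gene symbols, and the probe set with the highest mean over all 8 arrays stood for each gene. Of the 47, 42 had a probe set annotated to that gene alone, and for CYP2C18, UGT2B7, MGST1, NR1I2 and PTGR1 no probe set was named in the annotation used here. Of the 42, 39 passed the filter on low values (log2 over 4 in at least 2 arrays), out of 7696 genes tested in all. The other 3, CYP2B6, CYP24A1 and ADH1C, stayed under log2 4 in every array and entered no test. ABCB1 and NAT2 passed only through their 2 Caco-2 control arrays, the group where they are high. GSTM4 passed only through the control arrays of the lines. EPHX2, ABCC2 and CES1 needed their Caco-2 arrays to pass, and AKR1B10, GSTT1 and CYP3A4 their HUG1N arrays. Calls of these genes between the groups concerned, and their place in the counts below, therefore partly reflect the filter.

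Cells handle drugs, pollutants and many endogenous lipids in steps. Cytochromes P450, dehydrogenases, reductases and hydrolases introduce or expose a reactive group, transferases then attach glutathione, glucuronate, sulfate or acetate, and ATP-driven pumps export the product. The genes are partly controlled by ligand-sensing factors such as the aryl hydrocarbon receptor AHR and the pregnane X receptor NR1I2, and by the oxidant-responsive factor NRF2, which is encoded by NFE2L2. Gut epithelium carries much of this machinery because it meets ingested compounds first, and Caco-2 monolayers are a common model of intestinal drug absorption.

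The data come from a study of GATA6 in human gastric cancer; GATA6 is a GATA-family DNA-binding protein needed in developing gut. Caco-2, a colorectal adenocarcinoma line, and HUG1N, a gastric cancer line whose cell line label is HuG-1, each had 2 control arrays and 2 arrays of cells infected with a short hairpin RNA (shRNA) against GATA6 and selected with puromycin. The treatment text is the same for every sample and puts GATA6 shRNA and puromycin on the control samples too, while titles and descriptions separate control from shRNA cells; the grouping used here follows the latter, and what control cells received is unclear. The labels do not name the number of shRNA sequences and leave unsaid whether the arrays within a group stem from different cultures, so p-values reflect only array-to-array spread, possibly technical. Values are deposited log2 expression values on the GCRMA scale, with a lowest value of 2.08 shared by all arrays.

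GATA6 itself changed little. Its log2 values were 12.63 and 12.45 in control and 12.23 and 12.02 in shRNA arrays of Caco-2, and 12.54 and 12.45 in HUG1N control and 12.26 and 12.22 in HUG1N shRNA arrays. The fall was called in Caco-2 (-0.42, SE 0.10, limma adjusted p = 0.0224) and not in HUG1N (-0.25, SE 0.10, adjusted p = 0.0879). With control replicate 1 left out the GATA6 change in Caco-2 was -0.32 (adjusted p = 0.114), and with shRNA replicate 2 left out it was -0.31 (adjusted p = 0.0964), neither of them called. It was also not called with Caco-2 fitted alone (adjusted p = 0.0724) or with no filter (0.0562). RNA quality values moved with the shRNA in HUG1N, where the gap between the ACTB control probe sets at the 2 ends of the transcript was 2.51 ± 0.23 in control and 3.73 ± 0.06 in shRNA arrays, against 1.92 ± 0.02 and 1.55 ± 0.13 in Caco-2 (SD, n = 2 each). The 9 hybridisation control probe sets averaged 12.28 ± 0.09 in HUG1N control and 10.36 ± 0.10 in HUG1N shRNA arrays, and 11.97 ± 0.14 and 11.86 ± 0.07 in Caco-2 (SD, n = 2 each). Of 8 gut epithelial markers, 8 exceeded log2 4 in Caco-2 control and both HUG1N groups and 7 in Caco-2 shRNA arrays (LGALS4 did not), with summed log2 values of 92.1 to 93.3, 91.9 to 93.0, 90.9 to 92.5 and 98.2 to 98.8 in Caco-2 control, Caco-2 shRNA, HUG1N control and HUG1N shRNA arrays. Of 6 gastric markers, 3, 3, 5 and 4 exceeded it in the same order, with sums of 34.4 to 34.6, 26.26 to 27.02, 50.2 to 50.6 and 47.9 to 47.9. Markers of other cell types were partly present. Of 8 fibroblast markers COL1A1 exceeded log2 4 in every group and LUM in Caco-2 shRNA arrays, the other 6, VIM and DCN among them, in no array, and the sums were 20.5 to 20.6, 24.43 to 25.01, 19.1 to 19.7 and 19.0 to 19.6. Of 5 immune markers with a probe set LYZ exceeded it in every group, CD14 in Caco-2 control and HLA-DRA in HUG1N control arrays, and PTPRC and CD3E in none, with sums of 19.9 to 20.8, 16.5 to 17.6, 21.3 to 22.6 and 21.2 to 21.4. Of 4 endothelial markers PECAM1 alone exceeded it, in both Caco-2 groups, with sums of 11.3 to 11.7, 10.1 to 11.0, 8.42 to 8.42 and 8.42 to 8.45. The part of these array and marker differences in the results below was not tested.

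**Figure D1:**
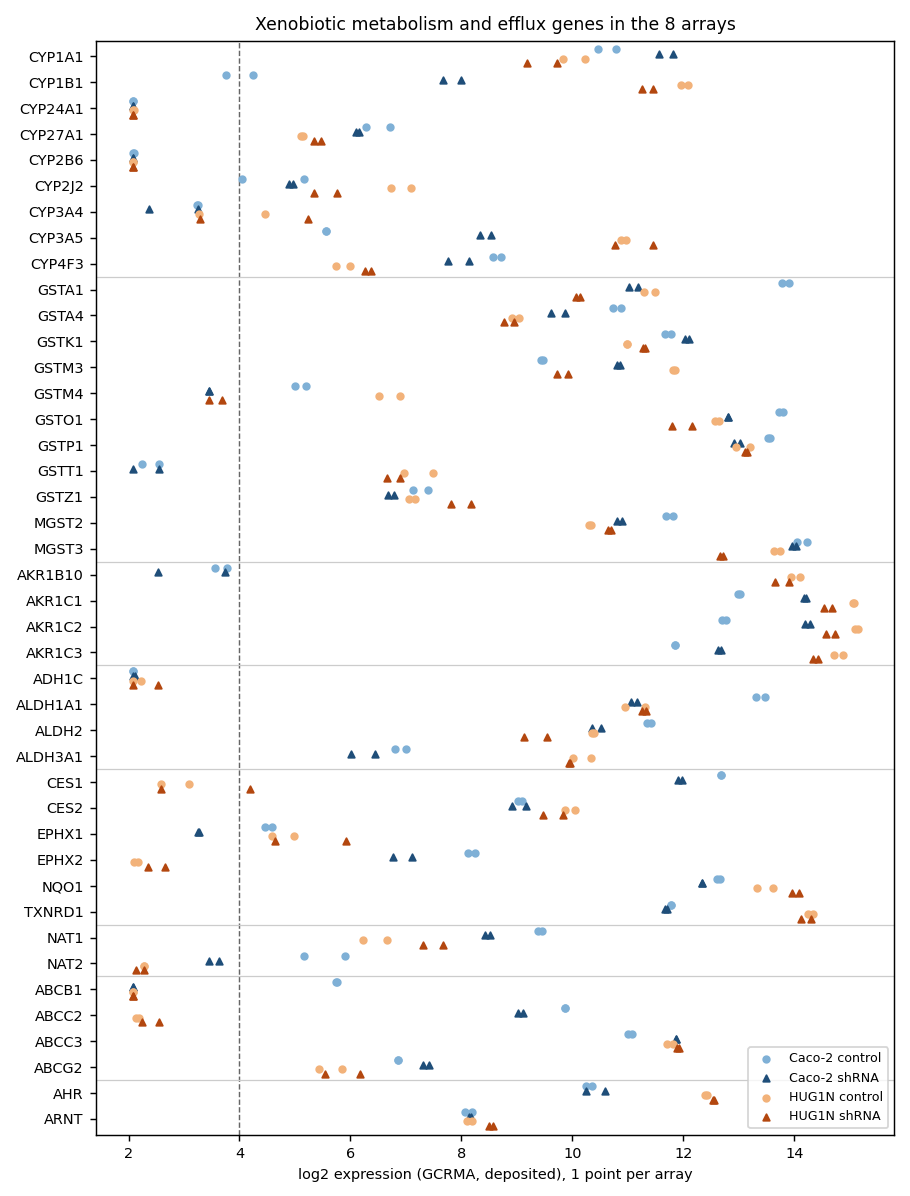
Deposited log2 expression (GCRMA) of the 42 genes with a probe set of their own, 1 point per array, grouped by enzyme class from cytochromes P450 at the top to regulators at the bottom. The dashed line marks log2 4, the level used in the filter, and CYP2B6, CYP24A1 and ADH1C lie to its left in all 8 arrays.

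The control cells of the lines carried different sets of these enzymes. Of the 39 tested genes, 34 differed between the control arrays of the lines, 16 higher in HUG1N and 18 higher in Caco-2, beside 78.4% called over all genes tested (37.1% higher and 41.3% lower in HUG1N). For 28 of the 39 the difference was at least 2-fold, beside 45.9% of all genes. AKR1B10, an aldo-keto reductase that reduces retinal and reactive aldehydes, read 13.95 and 14.10 in HUG1N control and 3.78 and 3.55 in Caco-2 control arrays. HUG1N was thus at least 1040.0-fold higher, a bound that sets the mean of the brighter group against log2 4 because no array of the dimmer group exceeded it (limma adjusted p = 1.10e-06). The glutathione transferase GSTT1 was at least 9.35-fold higher in HUG1N. Both genes passed the filter only through HUG1N arrays, so their calls between the lines partly reflect the filter.

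Several other genes were higher in HUG1N control cells. CYP1B1, a P450 that oxidises polycyclic hydrocarbons and estrogens, differed by 8.02 on the log2 scale (SE 0.19, limma adjusted p = 2.24e-07), or by 6.26 to 8.26 over the alternatives, with 1 of 2 Caco-2 control arrays under log2 4. CYP3A5, a drug-oxidising P450, differed by 5.37 (SE 0.21) and ALDH3A1, an aldehyde dehydrogenase of stomach and cornea, by 3.28 (SE 0.17). TXNRD1, the cytosolic thioredoxin reductase, differed by 2.51 (SE 0.09), AHR by 2.11 (SE 0.12) and the quinone reductase NQO1 by 0.83 (SE 0.11). These 6 were called in this comparison. The NQO1 probe sets disagreed, though. Another bright one averaged 12.42 in Caco-2 control and 12.43 in HUG1N control arrays, and the remaining one differed by 0.92.

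Caco-2 control cells in turn held hydrolases, pumps and an acetyltransferase that stayed under log2 4 in HUG1N control cells. CES1, the liver-type carboxylesterase that activates ester prodrugs, read 12.67 and 12.68 in Caco-2 control against 3.08 and 2.58 in HUG1N control arrays, at least 409-fold higher. ABCC2, the apical pump for glutathione and glucuronide conjugates, read 9.87 and 9.86 against 2.19 and 2.14, at least 58.3-fold higher. EPHX2, the soluble epoxide hydrolase, was at least 18.1-fold higher in Caco-2, ABCB1, the P-glycoprotein pump, at least 3.36-fold, and the acetyltransferase NAT2 at least 2.89-fold. In all 5, every HUG1N control array was under log2 4. ABCB1 and NAT2 passed the filter only through the Caco-2 control arrays, and CES1, ABCC2 and EPHX2 needed Caco-2 arrays to pass. Their calls between the lines therefore partly reflect the filter. Liver-type plasma protein genes split the lines the same way: ALB, APOA1, SERPINA1, TF and FGB, all 5 of the list, exceeded log2 4 in Caco-2 control arrays (summed log2 value 57.2 to 57.6) and none did in HUG1N control arrays (12.5 to 12.5).

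**Figure D2:**
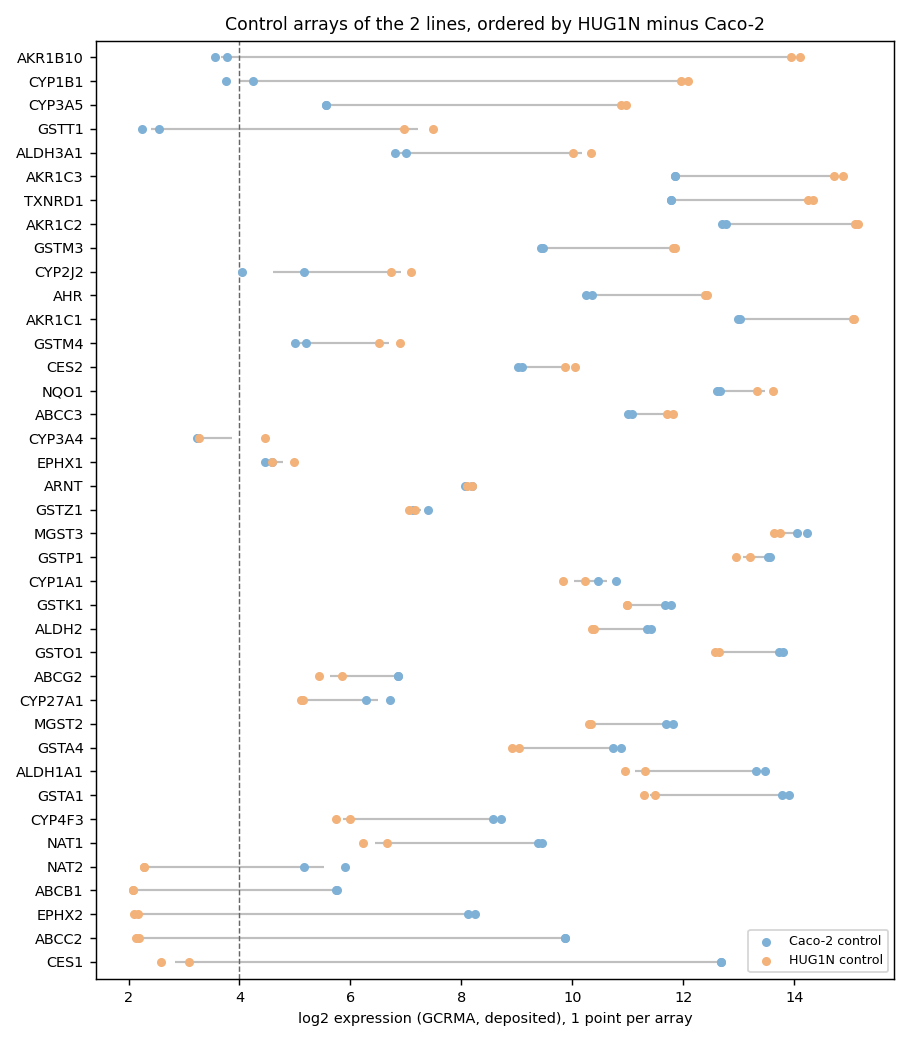
Deposited log2 expression of the 39 tested genes in the control arrays of Caco-2 and HUG1N, 1 point per array with a grey line between the group means, ordered by HUG1N minus Caco-2. AKR1B10, at the top, and CES1, at the bottom, lie under log2 4 (dashed) in both control arrays of the other line.

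With the shRNA, 26 of the 39 genes were called in Caco-2, 9 higher and 17 lower, where 38.7% of all tested genes were called, 19.5% higher and 19.2% lower. In HUG1N 18 were called, 7 higher and 11 lower, or 46.2% of the set, which is close to the 48.7% of all tested genes called there (24.7% higher and 23.9% lower). The median change over the 39 genes was -0.43 in Caco-2, or -0.31 with values under log2 4 set to 4, beside 0.00 over all genes, and 0.00 in HUG1N, where the median over all genes was also 0.00. Changes of at least 2-fold were called for 14 of the genes in Caco-2 (9.64% of all genes) and for 7 in HUG1N (11.7%). In arrays of bulk cells, fewer cells of a type and less RNA per cell cannot be told apart.

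**Figure D3:**
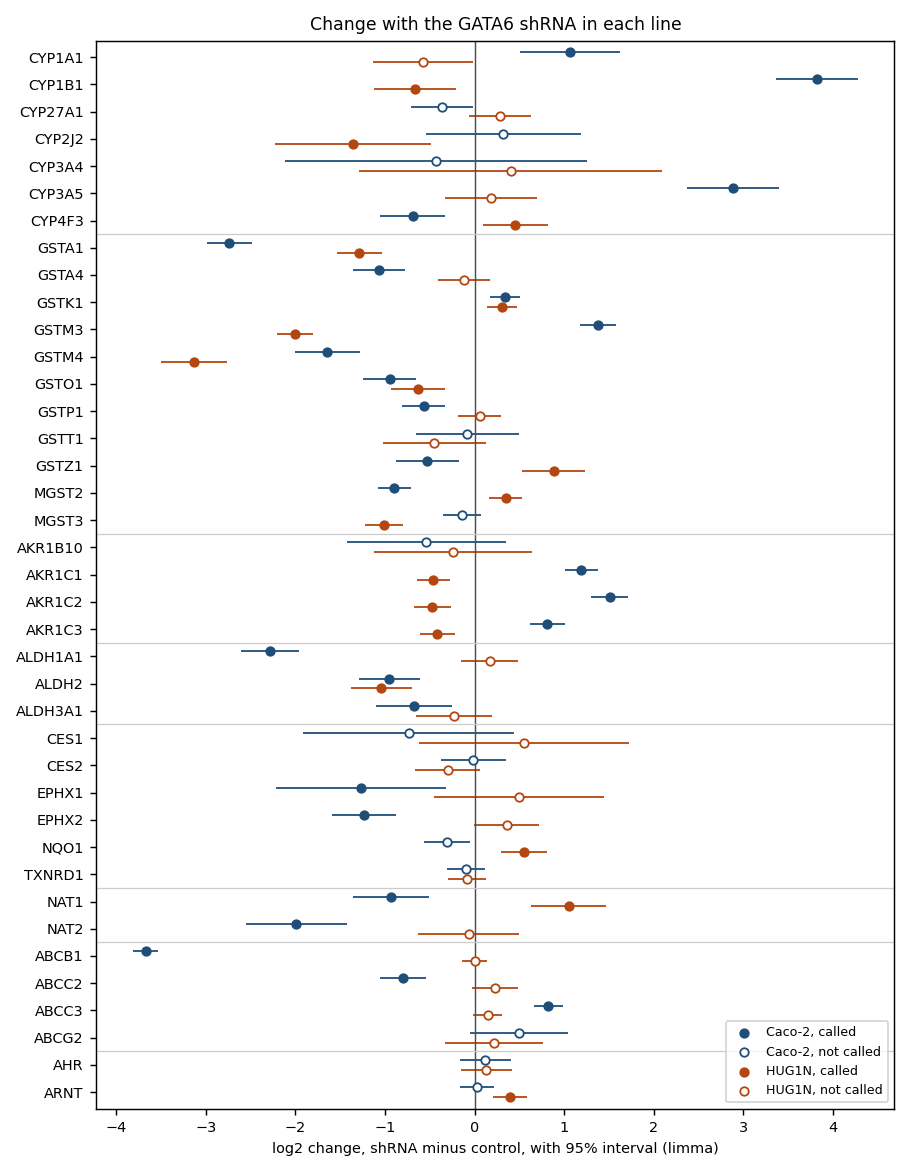
Change in log2 expression (shRNA minus control) of the 39 tested genes in Caco-2 (blue) and HUG1N (orange), with 95% limma intervals. Filled points passed the test at an adjusted p under 0.05. In Caco-2 CYP1B1 rises by 3.83 and CYP3A5 by 2.88, and GSTA1 lies at -2.74; the points of ABCB1 in Caco-2 and GSTM4 in both lines are set by shRNA arrays under log2 4.

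Among cytochromes P450, CYP1A1, CYP1B1 and CYP3A5 rose in Caco-2 with the shRNA. Of the 7 tested, these 3 rose and 1 fell in Caco-2, and 1 rose and 2 fell in HUG1N. The shares called were 57.1% in Caco-2 and 42.9% in HUG1N, beside 38.7% and 48.7% of all tested genes. CYP1B1 read 4.25 and 3.76 in Caco-2 control, 7.67 and 7.99 in the shRNA arrays of that line, 11.96 and 12.09 in HUG1N control and 11.45 and 11.26 in HUG1N shRNA arrays. It rose by 3.83 in Caco-2 (SE 0.19, limma adjusted p = 4.31e-05), from a control group with 1 of 2 arrays over log2 4, and stayed below every HUG1N array. In HUG1N it changed by -0.67 (SE 0.19, adjusted p = 0.0271), a call that was lost when any 1 of the 4 HUG1N arrays was left out (adjusted p = 0.0695 and 0.115 without control replicates 1 and 2, 0.0588 and 0.118 without shRNA replicates 1 and 2). Another 2 of its probe sets moved the same way in both lines, by 3.96 and 4.42 in Caco-2 and by -0.78 and -0.93 in HUG1N, and the remaining probe set stayed under log2 4 in every array.

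CYP3A5 read 5.56 in both Caco-2 control arrays and 8.54 and 8.34 in the shRNA arrays, a rise of 2.88 (SE 0.21, limma adjusted p = 0.000222). Its HUG1N values were 10.88 and 10.96 in control and 10.77 and 11.45 in shRNA arrays, which overlap (0.19, SE 0.21, adjusted p = 0.508), with a call only without HUG1N shRNA replicate 1 (0.53, adjusted p = 0.0172). The 2 other CYP3A5 probe sets changed by 2.69 and 3.17 in Caco-2. CYP3A4, its close relative and the main drug-oxidising P450 of liver and gut, exceeded log2 4 in 1 HUG1N control and 1 HUG1N shRNA array and in no Caco-2 array.

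CYP1A1, the P450 best known as a target of AHR, read 10.78 and 10.46 in Caco-2 control and 11.56 and 11.81 in shRNA arrays. It rose by 1.07 (SE 0.23, limma adjusted p = 0.0135), a call that depended on control replicate 2 (0.91 and adjusted p = 0.0780 without it) and on shRNA replicate 2 (0.94 and 0.0732 without it). HUG1N control arrays read 10.23 and 9.82 and shRNA arrays 9.19 and 9.71, a difference of -0.58 (SE 0.23) that was not called (adjusted p = 0.0824), though it was without HUG1N shRNA replicate 2 (-0.84, adjusted p = 0.0404). The 250 bases upstream of the CYP1A1 RefSeq start (GRCh38.p14, chr15:74725529-74725778, minus strand) are shown because they hold the AHR-ARNT core letters GCGTG. These letters, in capitals, lie 57 to 53 bases before the start.
CYP1A1: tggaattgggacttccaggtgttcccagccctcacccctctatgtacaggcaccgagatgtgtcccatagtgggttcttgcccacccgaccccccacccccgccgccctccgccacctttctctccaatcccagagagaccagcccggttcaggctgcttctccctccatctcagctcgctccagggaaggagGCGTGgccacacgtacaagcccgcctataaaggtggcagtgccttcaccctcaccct
Letters GCGTG on either strand occur in 32.2% of the 35116 RefSeq promoter windows searched over the same 250 bases.

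CYP2J2, which makes epoxides of arachidonic acid, read 6.73 and 7.08 in HUG1N control and 5.34 and 5.76 in HUG1N shRNA arrays. It fell there by 1.36 on the log2 scale (SE 0.36, limma adjusted p = 0.0213), and was not called with control replicate 1 (adjusted p = 0.0522), control replicate 2 (0.101) or shRNA replicate 1 (0.103) left out. In Caco-2 its control arrays, at 4.05 and 5.16, spanned the shRNA arrays at 4.97 and 4.88, and a call appeared only without control replicate 2 (0.87, adjusted p = 0.0480). CYP4F3, a leukotriene omega-hydroxylase, read 8.57 and 8.70 in Caco-2 control, 8.13 and 7.76 in the shRNA arrays of that line, 6.0 and 5.74 in HUG1N control and 6.37 and 6.27 in HUG1N shRNA arrays.

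CYP4F3 was called lower in Caco-2 (-0.69, SE 0.15, limma adjusted p = 0.0134) and higher in HUG1N (0.46, SE 0.15, adjusted p = 0.0448). In Caco-2 the adjusted p was 0.0760 with control replicate 2 left out and 0.0526 with shRNA replicate 2 left out, so the call rests on both. The HUG1N call of CYP4F3 was lost with HUG1N fitted alone (adjusted p = 0.0619) and without Caco-2 control replicate 1 (0.0683) or 2 (0.0682), HUG1N control replicate 2 (0.195) and HUG1N shRNA replicate 1 (0.160) or 2 (0.0948). A probe set annotated to both CYP4F2 and CYP4F3 read 4.60 and 4.49 in Caco-2 control and 3.18 and 2.94 in the shRNA arrays of that line. CYP27A1, the mitochondrial sterol 27-hydroxylase, was not called in either line (-0.36 in Caco-2, adjusted p = 0.0921, and 0.29 in HUG1N, adjusted p = 0.144). It was called in Caco-2 without control replicate 1 (-0.58, adjusted p = 0.0147), and in HUG1N without either Caco-2 control array (adjusted p = 0.0357 each).

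Glutathione transferases mostly fell in Caco-2, with 7 of 11 called lower and 2 higher, and in HUG1N 5 were called lower and 3 higher. That is 81.8% called in Caco-2 and 72.7% in HUG1N, beside 38.7% and 48.7% of all tested genes. GSTA1, the alpha-class enzyme of liver and small intestine, read 13.91 and 13.78 in Caco-2 control, 11.19 and 11.03 in the shRNA arrays of that line, 11.29 and 11.49 in HUG1N control and 10.06 and 10.14 in HUG1N shRNA arrays. It fell in both lines, by 2.74 in Caco-2 (SE 0.10, limma adjusted p = 1.77e-05) and by 1.29 in HUG1N (SE 0.10, adjusted p = 0.000299) on the log2 scale. The fall was larger in Caco-2, by the test of the difference (1.45, SE 0.15, adjusted p = 0.000854). GSTA1 has close relatives in its class, GSTA2 among them, whose signal cannot be told apart here. A second GSTA1 probe set stayed under log2 4 in every array, and with the mean of both the changes were -1.37 in Caco-2 and -0.39 in HUG1N. GSTA4, the alpha-class enzyme for lipid peroxidation aldehydes, read 10.88 and 10.74 in Caco-2 control and 9.87 and 9.62 in shRNA arrays, and changed by -1.07 there (SE 0.12, adjusted p = 0.00112) and by -0.11 in HUG1N (SE 0.12, adjusted p = 0.470), where the groups overlapped.

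The mu-class genes went different ways. GSTM3 read 9.43 and 9.48 in Caco-2 control, 10.80 and 10.86 in the shRNA arrays of that line, 11.85 and 11.81 in HUG1N control and 9.92 and 9.73 in HUG1N shRNA arrays. It rose by 1.37 in Caco-2 (SE 0.08, limma adjusted p = 0.000103) and fell by 2.01 on the log2 scale in HUG1N (SE 0.08, adjusted p = 4.84e-05), so the order of the lines in control cells was turned around in the shRNA cells. GSTM4 read 5.0 and 5.20 in Caco-2 control and 6.89 and 6.51 in HUG1N control arrays, and lay under log2 4 in all 4 shRNA arrays (3.46 and 3.45 in Caco-2, 3.45 and 3.68 in HUG1N). It was at least 2.14-fold lower with the shRNA in Caco-2 and at least 6.48-fold lower in HUG1N (adjusted p = 0.000532 and 6.28e-05). GSTM4 passed the filter only through the control arrays, so these calls add no separate support. Its other probe set averaged 4.95 in HUG1N control and 2.32, under log2 4, in HUG1N shRNA arrays, and the related GSTM1 and GSTM2 were at least 1.96-fold and 1.29-fold lower there; mu-class probe sets can share signal, which leaves the gene uncertain.

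Among the remaining transferases, the membrane enzyme MGST2, which also makes leukotriene C4, read 11.68 and 11.82 in Caco-2 control, 10.81 and 10.90 in the shRNA arrays of that line, 10.30 and 10.33 in HUG1N control and 10.69 and 10.64 in HUG1N shRNA arrays. MGST2 was called lower in Caco-2 (-0.90, SE 0.08) and higher in HUG1N (0.35, SE 0.08). GSTZ1, which breaks down maleylacetoacetate in tyrosine catabolism, read 7.13 and 7.40 in Caco-2 control, 6.79 and 6.68 in the shRNA arrays of that line, 7.17 and 7.06 in HUG1N control and 7.82 and 8.16 in HUG1N shRNA arrays. It was called the same opposite ways, at -0.53 (SE 0.14, limma adjusted p = 0.0307) and 0.88 (SE 0.14, adjusted p = 0.00364). In Caco-2 GSTZ1 was not called with control replicate 2 (adjusted p = 0.150), shRNA replicate 1 (0.0828) or shRNA replicate 2 (0.127) left out.

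MGST3, a related membrane peroxidase, read 13.64 and 13.75 in HUG1N control and 12.71 and 12.66 in HUG1N shRNA arrays, a fall of 1.01 (SE 0.09, limma adjusted p = 0.000386), against -0.14 (SE 0.09, adjusted p = 0.249) in Caco-2. GSTO1, the omega-class enzyme, fell in both lines (-0.95, SE 0.12, and -0.63, SE 0.12), although its HUG1N call was lost with that line fitted alone (adjusted p = 0.0541). GSTK1, of mitochondria and peroxisomes, was called higher in both (0.34 and 0.30, SE 0.07 each). The GSTK1 call in Caco-2 was lost without control replicate 1 of that line (adjusted p = 0.0646) or its shRNA replicate 2 (0.0523), and that in HUG1N without shRNA replicate 1 (0.0504). GSTP1, the pi-class enzyme of most carcinomas, fell in Caco-2 (-0.57, SE 0.10) and differed by 0.06 (SE 0.10, adjusted p = 0.676) in HUG1N. GSTT1 was under log2 4 in every Caco-2 array and was not called in HUG1N (-0.45, SE 0.24, adjusted p = 0.164).

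The AKR1C reductases, which reduce ketosteroids, prostaglandins and aldehydes, rose in Caco-2 and fell in HUG1N. AKR1C1 read 13.02 and 12.98 in Caco-2 control, 14.21 and 14.17 in the shRNA arrays of that line, 15.07 and 15.06 in HUG1N control and 14.68 and 14.53 in HUG1N shRNA arrays. AKR1C2 read 12.77 and 12.70, then 14.29 and 14.20, then 15.10 and 15.15, and then 14.74 and 14.57 in the same order of groups. AKR1C3, also known as a 17-beta-hydroxysteroid dehydrogenase, read 11.85 in both Caco-2 control arrays, 12.68 and 12.63 in Caco-2 shRNA, 14.88 and 14.71 in HUG1N control and 14.42 and 14.34 in HUG1N shRNA arrays. For all 3 genes the Caco-2 shRNA arrays stayed below the HUG1N arrays.

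In Caco-2 the rises were 1.19 for AKR1C1 (SE 0.07, limma adjusted p = 0.000118), 1.51 for AKR1C2 (SE 0.08, adjusted p = 7.49e-05) and 0.81 for AKR1C3 (SE 0.08, adjusted p = 0.000721). In HUG1N the changes were -0.46 (SE 0.07, adjusted p = 0.00343), -0.47 (SE 0.08, adjusted p = 0.00501) and -0.41 (SE 0.08, adjusted p = 0.00718). The shRNA effects of the lines differed for all 3 (adjusted p = 0.000164, 0.000139 and 0.000646), which their opposite calls on the same arrays all but fix. AKR1C1 and AKR1C2 are near-identical in sequence, so their probe sets can share signal and the pair is not independent. Another AKR1C1 probe set, with a lower reading, differed by 2.22 in Caco-2 and by -1.10 in HUG1N. AKR1B10, by contrast, stayed under log2 4 in every Caco-2 array (3.78 and 3.55 in control, 2.52 and 3.73 in shRNA) and read 13.90 and 13.66 in HUG1N shRNA arrays, with no call in either line. Without Caco-2 shRNA replicate 2 it was called in Caco-2 (-1.14, adjusted p = 0.00825), on arrays that all lie under log2 4.

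The upstream sequences of these 3 genes and of GSTA1 are shown as examples, in an experiment that targets a GATA factor. AKR1C1, AKR1C2 and AKR1C3 moved together, in opposite directions in the lines, and GSTA1 fell in both lines. GSTM4, GSTO1 and ALDH2 also fell in both lines and are not shown. Each is the 250 bases before a RefSeq start (GRCh38.p14): AKR1C1 at chr10:4963165-4963414 (plus strand), AKR1C2 at chr10:5003858-5004107 (minus strand), AKR1C3 at chr10:5094164-5094413 (plus strand, the more downstream of 2 listed starts) and GSTA1 at chr6:52803817-52804066 (minus strand). Capitals mark GATA with A or T before it and A or G after it, the core that GATA factors are known to prefer, on either strand.
AKR1C1: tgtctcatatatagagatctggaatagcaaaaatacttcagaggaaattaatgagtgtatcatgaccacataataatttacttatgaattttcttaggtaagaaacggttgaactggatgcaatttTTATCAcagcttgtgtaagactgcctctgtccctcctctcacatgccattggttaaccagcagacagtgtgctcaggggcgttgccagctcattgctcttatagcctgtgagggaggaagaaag
AKR1C2: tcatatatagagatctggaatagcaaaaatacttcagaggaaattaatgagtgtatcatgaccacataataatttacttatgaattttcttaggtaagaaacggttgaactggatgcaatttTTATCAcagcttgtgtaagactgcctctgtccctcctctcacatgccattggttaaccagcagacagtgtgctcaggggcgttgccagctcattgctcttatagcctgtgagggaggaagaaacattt
AKR1C3: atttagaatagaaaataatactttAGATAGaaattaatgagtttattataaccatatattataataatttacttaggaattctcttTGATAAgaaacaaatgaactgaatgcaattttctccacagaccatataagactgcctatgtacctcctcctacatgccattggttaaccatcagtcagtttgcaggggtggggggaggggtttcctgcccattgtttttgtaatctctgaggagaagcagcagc
GSTA1: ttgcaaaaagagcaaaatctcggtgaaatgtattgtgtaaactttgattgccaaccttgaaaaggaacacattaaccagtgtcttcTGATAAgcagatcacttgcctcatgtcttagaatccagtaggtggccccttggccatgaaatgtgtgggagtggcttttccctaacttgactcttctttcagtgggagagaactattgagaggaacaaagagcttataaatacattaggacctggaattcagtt
The AKR1C1 and AKR1C2 windows matched at 245 of 246 aligned bases, and AKR1C1 and AKR1C3 at 186 of 233. The letters lay 124 to 119 bases before the start of AKR1C1, 128 to 123 before AKR1C2, 226 to 221 and 164 to 159 before AKR1C3, and 164 to 159 before GSTA1.

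Matches of this kind are common and describe the sequence only. Of all 35116 windows, 22.3% held at least 1 of these GATA letters, and 16 of the 47 windows of the 34 set genes with an entry did (34.0%), in 14 genes. The 14 were ABCB1, ADH1C, AKR1C1, AKR1C2, AKR1C3, ALDH1A1, CYP3A4, CYP3A5, EPHX1, GSTA1, GSTA4, GSTM3, MGST1 and UGT2B7. Of these, ADH1C, MGST1 and UGT2B7 entered no test and CYP3A4 was called in neither line. GSTM4 and GSTO1, which like GSTA1 fell in both lines, have windows without these letters. GCGTG occurred in 13 of the 47 windows (27.7%, against 32.2% of all) and the NRF2 core TGACNNNGC in 8 (17%, against 10.9% of all).

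Aldehyde dehydrogenases fell in Caco-2, where all 3 tested were called lower, and 1 of 3 was called lower in HUG1N. Over all genes 19.2% were called lower in Caco-2 and 23.9% in HUG1N. ALDH1A1, which oxidises retinal to retinoic acid and is used as a stem cell marker, read 13.47 and 13.32 in Caco-2 control and 11.16 and 11.07 in the shRNA arrays of that line. That change of -2.28 (SE 0.13, limma adjusted p = 8.76e-05) brought Caco-2 shRNA arrays into the range of the HUG1N arrays, which read 10.94 and 11.31 in control and 11.33 and 11.25 in shRNA cells and overlapped (0.17, SE 0.13, adjusted p = 0.334). ALDH2, the mitochondrial enzyme that clears acetaldehyde, fell in both lines. It read 11.35 and 11.41 in Caco-2 control, 10.34 and 10.51 in the shRNA arrays of that line, 10.36 and 10.39 in HUG1N control and 9.54 and 9.13 in HUG1N shRNA arrays, changes of -0.95 (SE 0.14, adjusted p = 0.00317) and -1.04 (SE 0.14, adjusted p = 0.00173).

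The effects on ALDH2 differed by -0.09 between the lines (95% interval -0.57 to 0.40). ALDH3A1 changed by -0.68 in Caco-2 (SE 0.17, limma adjusted p = 0.0248) and by -0.23 in HUG1N (SE 0.17, adjusted p = 0.317). In Caco-2 ALDH3A1 was not called with control replicate 1 (adjusted p = 0.122), control replicate 2 (0.0636) or shRNA replicate 1 (0.0998) left out, nor with that line fitted alone (0.0711). The alcohol dehydrogenase ADH1C was at most 2.52 in any array.

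Of 6 tested reductases, epoxide hydrolases and esterases, EPHX1 and EPHX2 were called lower in Caco-2 and NQO1 higher in HUG1N. These shares, 33.3% and 16.7%, lie below the 38.7% and 48.7% called over all tested genes. EPHX2, which turns fatty acid epoxides into diols, read 8.11 and 8.24 in Caco-2 control and 7.11 and 6.77 in shRNA arrays, a change of -1.24 (SE 0.15, limma adjusted p = 0.00147), and it was under log2 4 in every HUG1N array. EPHX1, the microsomal enzyme for xenobiotic epoxides, read 4.45 and 4.59 in Caco-2 control and 3.27 and 3.25 in shRNA arrays, at least 1.44-fold lower (adjusted p = 0.0444). HUG1N values of EPHX1 overlapped, at 4.58 and 4.97 in control and 5.92 and 4.63 in shRNA arrays, and were called only without shRNA replicate 2 (1.14, adjusted p = 0.00762). The EPHX1 call was lost without any 1 of the 4 Caco-2 arrays (adjusted p = 0.127, 0.161, 0.140 and 0.142 without control replicates 1 and 2 and shRNA replicates 1 and 2) or without HUG1N control replicate 1 (0.0647) or 2 (0.0648), with the replicate block (0.0637), and with values under log2 4 set to 4 (0.333).

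NQO1, a 2-electron quinone reductase and standard NRF2 target, read 12.67 and 12.61 in Caco-2 control, 12.34 and 12.33 in the shRNA arrays of that line, 13.33 and 13.61 in HUG1N control and 14.08 and 13.96 in HUG1N shRNA arrays. It was called higher in HUG1N (0.55, SE 0.11, limma adjusted p = 0.00678) and not called in Caco-2 (-0.31, SE 0.11, adjusted p = 0.0647). The Caco-2 difference of NQO1 was called with that line fitted alone (adjusted p = 0.0252), without HUG1N control replicate 1 (0.0274) or 2 (0.0275), with the mean of its probe sets (0.0218) and with a trended, robust fit (0.0183). TXNRD1 was not called in either line (-0.10 and -0.08, SE 0.09 each). CES2, the intestinal carboxylesterase, differed by -0.01 in Caco-2 and -0.30 in HUG1N (SE 0.15 each) and was not called, although the HUG1N difference was without shRNA replicate 1 (-0.48, adjusted p = 0.0488) and with the mean of its probe sets (-0.36, adjusted p = 0.0164). CES1 read 11.97 and 11.90 in Caco-2 shRNA arrays, below its control arrays, and differed by -0.74 (SE 0.48, adjusted p = 0.280). Its error pools all groups, and HUG1N shRNA arrays read 2.58 and 4.19. With the Caco-2 arrays fitted alone CES1 was called lower in Caco-2 (adjusted p = 0.00653), as it was without HUG1N shRNA replicate 1 or 2 (0.0247 each) and with values under log2 4 set to 4 (0.000850). In HUG1N it was called without shRNA replicate 1 (1.36, adjusted p = 0.00731), on a single array at 4.19.

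The arylamine acetyltransferases NAT1 and NAT2 both fell in Caco-2. NAT1, found in most tissues, read 9.38 and 9.44 in Caco-2 control, 8.52 and 8.43 in the shRNA arrays of that line, 6.22 and 6.65 in HUG1N control and 7.67 and 7.31 in HUG1N shRNA arrays. It changed by -0.93 in Caco-2 (SE 0.17, limma adjusted p = 0.00769) and by 1.05 in HUG1N (SE 0.17, adjusted p = 0.00368). NAT2, of liver and gut, read 5.91 and 5.16 in Caco-2 control and 3.63 and 3.46 in shRNA arrays, at least 2.89-fold lower (adjusted p = 0.00126), and was under log2 4 in every HUG1N array. NAT2 passed the filter only through the Caco-2 control arrays, so this call adds no separate support.

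Efflux pumps of Caco-2 moved apart. ABCB1, the P-glycoprotein pump for hydrophobic drugs, read 5.74 and 5.76 in Caco-2 control arrays and 2.08 in both shRNA arrays, the lowest value of the scale. It was at least 3.36-fold lower with the shRNA (limma adjusted p = 6.70e-07), with an error that is too small because 3 of its 4 groups sat at the lowest value, HUG1N included. ABCB1 passed the filter only through the Caco-2 control arrays, so this call adds no separate support. A probe set shared by ABCB1 and ABCB4 read 4.75 in both Caco-2 control arrays and 2.14 and 2.09 in the shRNA arrays.

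ABCC2 read 9.87 and 9.86 in Caco-2 control and 9.11 and 9.02 in shRNA arrays, a change of -0.80 (SE 0.11, limma adjusted p = 0.00229), and stayed under log2 4 in HUG1N, where a call appeared without shRNA replicate 2 (0.38, adjusted p = 0.0194). ABCC3, the basolateral pump for conjugates, read 11.01 and 11.07 in Caco-2 control and 11.87 and 11.86 in shRNA arrays, a rise of 0.82 (SE 0.07, adjusted p = 0.000348). HUG1N arrays read 11.71 and 11.81 in control and 11.89 and 11.92 in shRNA cells for ABCC3, which was not called (0.14, SE 0.07, adjusted p = 0.126). The apical pump ABCG2, which exports sulfate conjugates and several cancer drugs, differed by 0.50 in Caco-2 (SE 0.22, adjusted p = 0.134) and 0.21 in HUG1N (SE 0.22, adjusted p = 0.474) and was not called, except in Caco-2 fitted alone (adjusted p = 0.0155).

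The regulators in the set changed little. AHR read 10.24 and 10.35 in Caco-2 control, 10.58 and 10.24 in the shRNA arrays of that line, 12.39 and 12.42 in HUG1N control and 12.55 and 12.53 in HUG1N shRNA arrays. Its difference was 0.12 in Caco-2 (95% interval -0.17 to 0.40) and 0.13 in HUG1N (-0.15 to 0.42), with no call. ARNT, the partner AHR needs to bind DNA, read 8.06 and 8.19 in Caco-2 control, 8.13 and 8.16 in the shRNA arrays of that line, 8.19 and 8.10 in HUG1N control and 8.50 and 8.57 in HUG1N shRNA arrays. ARNT was called higher in HUG1N (0.39, SE 0.08, limma adjusted p = 0.00764). With the mean of its 3 probe sets the change was -0.23 (adjusted p = 0.0181): another probe set averaged 3.25 in HUG1N control and 2.17 in HUG1N shRNA arrays, both under log2 4, and the remaining one did not move.

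The effects in the 2 lines rest on separate arrays, so calls in both can be set side by side. Of the 39 genes, 14 were called in both lines, 5 in the same direction and 9 in opposite directions. Over all genes tested, 1576 were called in both, 1014 the same way and 562 opposite ways, or 13.2% and 7.3% of the 7696. Opposite calls made up 64.3% of the 14 and 35.7% of the 1576. GSTA1, GSTM4, GSTO1 and ALDH2 fell in both lines and GSTK1 rose in both, GSTM4 having passed the filter only through its control arrays. CYP1B1, GSTM3, AKR1C1, AKR1C2 and AKR1C3 rose in Caco-2 and fell in HUG1N, and CYP4F3, GSTZ1, MGST2 and NAT1 did the reverse. By the test of the difference, the shRNA effects of the lines differed for 27 of the 39 genes, 16 with a higher and 11 with a lower effect in HUG1N. All 9 are among them, but their opposite calls on the same arrays all but fix this, so it adds no support. Over all genes 44.9% were called in that test, 22.2% higher and 22.7% lower, and a difference of at least 2-fold was called for 20 of the 39 genes and 18.2% of all genes. These 9 are not independent, since AKR1C1 and AKR1C2 can share signal, and the CYP1B1, CYP4F3 and GSTZ1 calls were lost without single arrays as given above (adjusted p up to 0.118, 0.195 and 0.150).

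Lists of related genes extend these classes, and their counts are to be read against the 38.7% of all genes called in Caco-2 and 48.7% in HUG1N. Of 24 tested genes of the NRF2 pathway and glutathione supply, 10 rose and 3 fell in Caco-2, and 3 rose and 8 fell in HUG1N, with median changes of 0.15 and -0.22 beside 0.00 over all genes in each line. That is 54.2% called in Caco-2 and 45.8% in HUG1N, the latter close to the share of all genes. NFE2L2, which encodes NRF2, rose slightly in Caco-2 (0.25, SE 0.08, limma adjusted p = 0.0414) and differed by 0.03 (SE 0.08, adjusted p = 0.815) in HUG1N. SLC7A11, the cystine importer, rose by 1.33 (SE 0.08) in Caco-2 and 0.55 (SE 0.08) in HUG1N, and the autophagy receptor SQSTM1 by 1.02 (SE 0.06) in Caco-2. The glutathione peroxidase GPX2 changed by -1.40 (SE 0.13) and UGDH, which makes UDP-glucuronate, by -0.81 (SE 0.09) in Caco-2. In HUG1N the haem oxygenase HMOX1 was at least 2.71-fold lower and the carbonyl reductase CBR3 changed by -1.93 (SE 0.41), while GCLC, the catalytic subunit of glutathione synthesis, rose by 0.65 (SE 0.09).

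Of 9 tested genes linked to AHR, 5 rose and 1 fell in Caco-2, and 0 rose and 2 fell in HUG1N (limma), with medians of 0.25 and -0.08 (66.7% and 22.2% called). The exchange factor VAV3 rose by 3.73 (SE 0.14) and the scaffold NEDD9 by 1.36 (SE 0.27) in Caco-2. TIPARP, a feedback repressor of AHR, changed by 0.43 (SE 0.07) in Caco-2 and -0.28 (SE 0.07) in HUG1N. The retinal dehydrogenase ALDH1A3 changed by -0.84 (SE 0.12) in HUG1N, and its Caco-2 call was made under log2 4 in every array.

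Of 15 tested nuclear receptors and partners, 4 rose and 5 fell in each line, with medians of -0.08 in Caco-2 and -0.14 in HUG1N (60% called in each). The vitamin D receptor VDR, an inducer of CYP3A genes in gut, rose by 1.12 (SE 0.11, limma adjusted p = 0.000746) in Caco-2 and changed by -0.37 (SE 0.11, adjusted p = 0.0346) in HUG1N. The glucocorticoid receptor NR3C1 rose by 0.57 (SE 0.16) and NR0B2, a repressor of bile acid synthesis, changed by -1.64 (SE 0.21) in Caco-2. NR2F1 was at least 1.30-fold lower there. In HUG1N the retinoid X receptor RXRA and the pioneer factor FOXA1 rose by 0.75 and 0.73 (SE 0.12 each), NR5A2 was at least 3.03-fold lower and the oxysterol receptor NR1H3 changed by -0.71 (SE 0.10). The constitutive androstane receptor NR1I3 was at the lowest value of the scale, 2.08, in the mean of every group.

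Other first-step and conjugating enzymes fell more often than they rose in Caco-2, as the plot of shares called shows. Of 26 tested enzymes of the first step, 12 fell and 1 rose in Caco-2, and 7 fell and 4 rose in HUG1N, with medians of -0.30 and 0.07 (50% and 42.3% called). The alcohol dehydrogenase ADH6 changed by -3.76 (SE 0.17, limma adjusted p = 3.31e-05) in Caco-2, and the monoamine oxidase MAOB was at least 1.95-fold lower. POR, the reductase that supplies electrons to microsomal P450 enzymes, changed by -0.25 (SE 0.07) in Caco-2 and -1.10 (SE 0.07) in HUG1N. The cytochrome b5 reductase CYB5R3 rose by 0.68 (SE 0.07) in HUG1N. ALDH5A1, which oxidises succinic semialdehyde, rose in both lines (0.50 and 0.65, SE 0.13 each).

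Of 16 tested conjugating enzymes, 7 fell and 1 rose in Caco-2, and 3 fell and 3 rose in HUG1N, with medians of -0.50 and -0.05 (50% and 37.5% called). The hydroxysteroid sulfotransferase SULT2A1 changed by -6.06 (SE 0.44) in Caco-2, and GSTA3 was at least 1.59-fold lower. NNMT, which methylates nicotinamide and pyridines, was at least 39.5-fold higher in Caco-2. In HUG1N UGT8, a ceramide galactosyltransferase, rose by 0.56 (SE 0.14), and PAPSS1, which makes the sulfate donor, by 0.53 (SE 0.13). In the same Caco-2 arrays liver-type plasma protein markers moved as well, with 5 of 5 over log2 4 in control (summed log2 value 57.2 to 57.6) and 4 of 5 in shRNA arrays (52.1 to 52.6, TF not over log2 4), and the part of this in the enzyme counts was not tested.

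**Figure D4:**
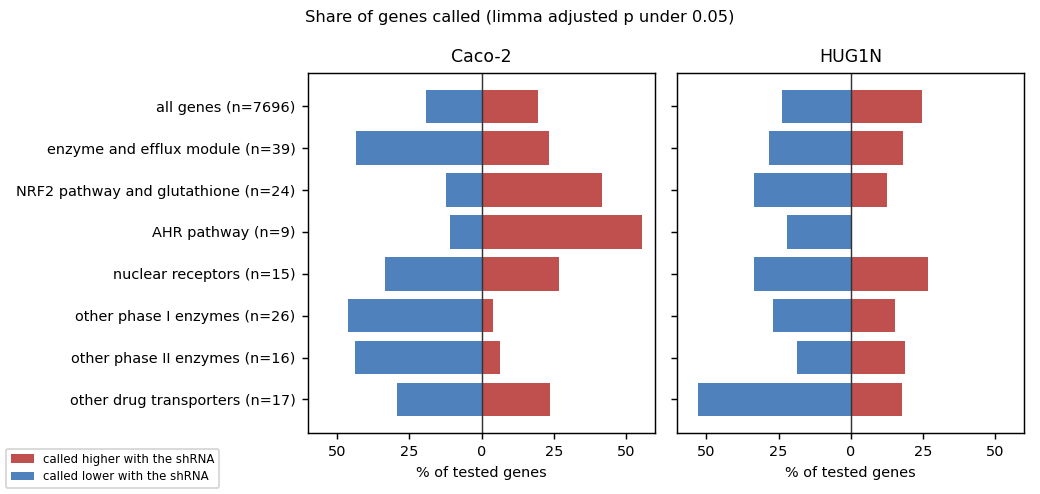
Percent of tested genes called higher (red, to the right) or lower (blue, to the left) with the shRNA in Caco-2 and HUG1N, for all 7696 genes, the 39 genes described here and 6 lists of related genes (n in brackets). In Caco-2 the bar for lower calls is 43.6% for the 39 genes and 19.2% for all genes, and in HUG1N 28.2% and 23.9%.

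Of 17 other tested drug and sterol transporters, 4 rose and 5 fell in Caco-2, and 3 rose and 9 fell in HUG1N, with medians of -0.31 and -0.61 (52.9% and 70.6% called). The Caco-2 median was 0.00 with values under log2 4 set to 4. The peptide transporter SLC15A1, which also takes up beta-lactam drugs, rose by 2.85 (SE 0.31, limma adjusted p = 0.00101) in Caco-2 and changed by -1.29 (SE 0.31, adjusted p = 0.0155) in HUG1N. The organic anion transporter SLCO3A1 was at least 2.75-fold higher in Caco-2, the cholesterol exporter ABCA1 changed by -1.14 (SE 0.31) and the thyroid hormone transporter SLCO4A1 by -0.90 (SE 0.11). In HUG1N SLCO2B1, an uptake carrier for statins and steroid sulfates, was at least 16.5-fold higher, and ABCC10 rose by 1.17 (SE 0.09). The sterol exporter ABCG1 changed by -3.04 (SE 0.25) in HUG1N, and the nucleoside transporter SLC29A1 was at least 2.48-fold lower.

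Of 4 tested genes of vitamin D and sterol oxidation, VDR rose and CYP2R1 and FDX1 fell in Caco-2, and VDR and FDX1 fell in HUG1N (limma), with medians of -0.36 and -0.12 (75% and 50% called). The vitamin D 25-hydroxylase CYP2R1 was at least 1.35-fold lower in Caco-2, and FDX1, the ferredoxin that serves mitochondrial P450 enzymes, changed by -0.26 and -0.28 (SE 0.08 each). CYP24A1, which inactivates vitamin D and is a strong VDR target, read at most 2.10 in any array of either line.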

How the data were processed

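Total RNA of 8 samples was measured on Affymetrix human arrays. The deposited values are log2 expression; the submitters' processing notes name GCRMA, without a version or settings. GCRMA corrects background by probe base content and equalises the arrays, so a change shared by most genes would not be seen, and 28.7 to 29.9% of probe sets per array lay at the lowest value. All arrays were treated as normalized together. Of 22277 probe sets, 19070 had 1 gene symbol in the platform annotation, 1043 several and 2164 none; only the first kind was used, with current symbols by Entrez identifier (19058 matched). Tests used limma 3.58.1 in R 4.3.3 on 4 group means over 7696 genes (4 residual degrees of freedom, prior of 2.17), with Benjamini-Hochberg adjustment and calls at an adjusted p under 0.05. All 8 arrays share 1 spread per gene, so groups at the lowest value make errors too small for the others. Folds against a group that stayed under log2 4 on both arrays are bounds against 4. Per-array values of at least 1 line are given for AHR, ARNT and set genes whose shRNA change was called at least 2-fold in a line. They are also given for set genes whose shRNA effects were called at least 2-fold different between lines. List genes, up to 2 per list, line and direction, have a change or a bound where either can be given. The genes and lists were chosen with earlier results of these data known. The fit was tested on simulated data. Replicate numbers did not pair the arrays (correlation of replicate differences between groups -0.06 to 0.07). Promoter windows came from RefSeq (GRCh38.p14); 34 of the 47 genes matched. Precision is limited by having 2 arrays a group.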

Additional observations from a re-analysis of the deposited data

Results flagged for a closer look

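The shRNA effect differed between the lines, by limma's test of the difference (HUG1N effect minus Caco-2 effect, log2 scale, adjusted p under 0.05), for 27 of the 39 genes. Called in opposite directions in the lines were CYP1B1 (-4.49), CYP4F3 (1.15), GSTM3 (-3.38), GSTZ1 (1.41), MGST2 (1.24), AKR1C1 (-1.65), AKR1C2 (-1.98), AKR1C3 (-1.22) and NAT1 (1.98). GSTA1 (1.45) and GSTM4 (-1.49) were called lower in both lines by different amounts; the GSTM4 value rests on shRNA arrays under log2 4.

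Called in Caco-2 alone, the difference was -1.64 for CYP1A1, -2.70 for CYP3A5, 0.95 for GSTA4, 0.63 for GSTP1, 1.76 for EPHX1, 1.60 for EPHX2, 2.45 for ALDH1A1, 1.92 for NAT2, 3.67 for ABCB1, 1.03 for ABCC2 and -0.68 for ABCC3. EPHX2, NAT2, ABCB1 and ABCC2 were under log2 4 in every HUG1N array, where a change could not be seen. The Caco-2 shRNA arrays of ABCB1, NAT2 and EPHX1 were under log2 4 too, so their differences are not exact: with values under 4 set to 4 they were 1.75, 1.53 and 1.02. Called in HUG1N alone, it was -1.68 for CYP2J2, -0.87 for MGST3, 0.86 for NQO1 and 0.37 for ARNT, and CYP27A1 (0.65) was called in neither line. The CYP2J2 difference was lost without either Caco-2 shRNA array or any HUG1N array (adjusted p = 0.0558 to 0.106). Those of CYP27A1 and ARNT were lost without Caco-2 control replicate 2, either Caco-2 shRNA array or any HUG1N array (0.0501 to 0.107 and 0.0511 to 0.107). That of EPHX1 was lost without any Caco-2 array or either HUG1N control array (0.0667 to 0.117), and with values under log2 4 set to 4 (0.169).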

How the results depend on the processing

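The counts of genes called stayed within 1.5 times of 26 (Caco-2), 18 (HUG1N), 27 (difference between lines) and 34 (control lines) in every alternative, except that asking for at least 2-fold left 14 in Caco-2 and 7 in HUG1N. Leaving out 1 array gave 20 to 27, 15 to 19, 22 to 25 and 32 to 35. With the replicate block the counts were 25, 18, 25 and 34; EPHX1 was lost in Caco-2 and in the difference (adjusted p = 0.0593), as was the ARNT difference (0.0554), and GATA6 was gained in HUG1N. Quantile normalization again and median centring left all 4 counts and their split by direction equal. With no filter the counts were 21, 15, 24 and 34, and the genes lost were among those also lost without single arrays. The share of all genes called under these alternatives is not given here. The counts therefore do not show how the set compares with all genes under each alternative. Of the genes called, 20 of 26 in Caco-2, 12 of 18 in HUG1N, 23 of 27 for the difference and 34 of 34 between control lines were called the same way in every alternative that tested them, other than the 2-fold minimum; ABCB1 and NAT2 were filtered out, and so not tested, without either Caco-2 control array and under the stricter filter. ARNT reversed with the mean of its probe sets, in HUG1N (-0.23) and in the difference (-0.26), where a probe set under log2 4 in every array averaged 3.25 in HUG1N control and 2.17 in HUG1N shRNA arrays. Genes near the lowest value give bounds or no value.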
